A study of Mus musculus with 24 samples.

Results

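The comparison here joins both sets of MLL-AF9 leukaemias in which Cre was driven by Vav: 6 libraries with floxed alleles against 6 control libraries, 12 of the 24 libraries of the series, chosen by their titles. In the Arid1b set, 3 libraries were Arid1b fl/fl VavCre+ (numbered 1, 3 and 4) and 3 were Arid1b +/+ VavCre+. In the Arid2 set, 3 were Arid2 fl/fl VavCre+ and 3 were Arid2 +/+ VavCre+. Every library, control or floxed, carried VavCre and the MLL-AF9 fusion, and its RNA came from the marrow of a moribund secondary recipient. The 2 sets share no library. The question was which genes moved the same way when either subunit gene was floxed, and only such genes are described as shared.

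Arid1b and Arid2 encode large subunits, able to bind DNA, of SWI/SNF chromatin remodellers, which use ATP to move nucleosomes at promoters and enhancers. ARID1B belongs to the BAF form of the complex and ARID2 to the PBAF form. MLL-AF9 joins the DNA-binding end of MLL to a partner that recruits transcription elongation factors, and it keeps myeloid progenitors growing with HoxA cluster genes and Meis1 active. Vav-driven Cre acts in blood-forming cells from development onward, so the alleles are recombined long before the leukaemia is made, and cells of the recipient's own marrow are not floxed.

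Totals were 17093477 to 23472856 counts in the Arid1b set and 28079167 to 38315410 in the Arid2 set. Levels below are in CPM, which divides each count by its library's total after correction for composition. A principal component analysis of log2 CPM gave a first component with 41.3% of the variance, on which the floxed libraries lay between 15.8 and 76.8 and the controls between -88 and 12.6, the highest control being Arid1b control 2. Arid1b stood at 185 to 368 CPM in its own controls and 139 to 187 in its own floxed libraries. Arid2 stood at 217 to 442.5 CPM in its own controls and 198 to 291 in its own floxed libraries. Neither difference passed the test within its set (adjusted p = 0.202 and 0.671, edgeR). Since which exons were removed is not stated in the labels, a count over the whole gene is a weak check of the alleles. Log2 fold changes of Arid1b were -0.62 ± 0.31 in its own set and -0.57 ± 0.31 in the Arid2 set. Those of Arid2 were -0.22 ± 0.30 in its own set and -0.60 ± 0.30 in the Arid1b set. The lower levels were thus not limited to the set in which the gene was floxed. Kdm5d, a Y-linked histone demethylase, was at 50.5 to 57.1 CPM in the 3 Arid1b controls and at 55.7 CPM in Arid2 floxed 2, and had 0 counts in the other 8 libraries. Sex and genotype therefore cannot be told apart in the Arid1b set, whereas 1 of the 6 Arid2 libraries was Y-positive. The defining markers of myeloid leukaemia cells (Ptprc, Itgam, Spi1, Mpo, Hoxa9 and Meis1) summed to 1720 to 8670 CPM in every library. Markers of erythroid, B, T and NK cells summed to at most 26.1 CPM in any library, those of megakaryocytes to 1.63 to 106 CPM, those of stromal and endothelial cells to 79.6 to 420 CPM, and those of mast cells, basophils and eosinophils to 13.9 to 940 CPM, the highest being an Arid1b control. Of these 27 markers of other cells 22 were tested, and none passed in either direction. In marrow samples, fewer cells of a type and less RNA per cell cannot be told apart.

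Of 13909 genes tested in 1 edgeR model with the set as a block, 1443 (10.4%) were raised and 1411 (10.1%) were lowered in floxed leukaemias at a Benjamini-Hochberg adjusted p under 0.05, with the same sign in each set. No gene called in this model had opposite signs in the 2 sets, while 41 genes with opposite signs had an unadjusted p under 0.05. More than 2-fold changes were found for 630 of the raised and 629 of the lowered genes, and 444 and 523 were at least 2-fold in each set separately. In 830 of the raised genes and 764 of the lowered genes the floxed and control libraries did not overlap in either set; over all tested genes such separation was seen upward in 899 (6.46%) and downward in 834 (6%), and in 179 the sets separated in opposite directions. Tested in each set alone, 1902 genes passed in the Arid1b set and 825 in the Arid2 set. Both tests were passed in the same direction by 143 raised (1.03%) and 149 lowered genes (1.07%), which is 15.4% of the Arid1b list and 35.4% of the Arid2 list, and 8 genes passed both in opposite directions. Without any one of Arid1b control 1, Arid1b floxed 3 or 4, Arid2 control 1 or 2 or Arid2 floxed 1 or 2 that count of 292 fell to between 10 and 137, and without Arid1b control 2 it was 448. All 292 were among the 2854 shared genes, of which 1229 passed in neither set alone. Over all tested genes the 2 effects had the same sign in 67.1%, and they correlated with Pearson's r = 0.482 and Spearman's rho = 0.478 across genes, which are not independent replicates. The plot of one effect against the other shows this.

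**Figure D1:**
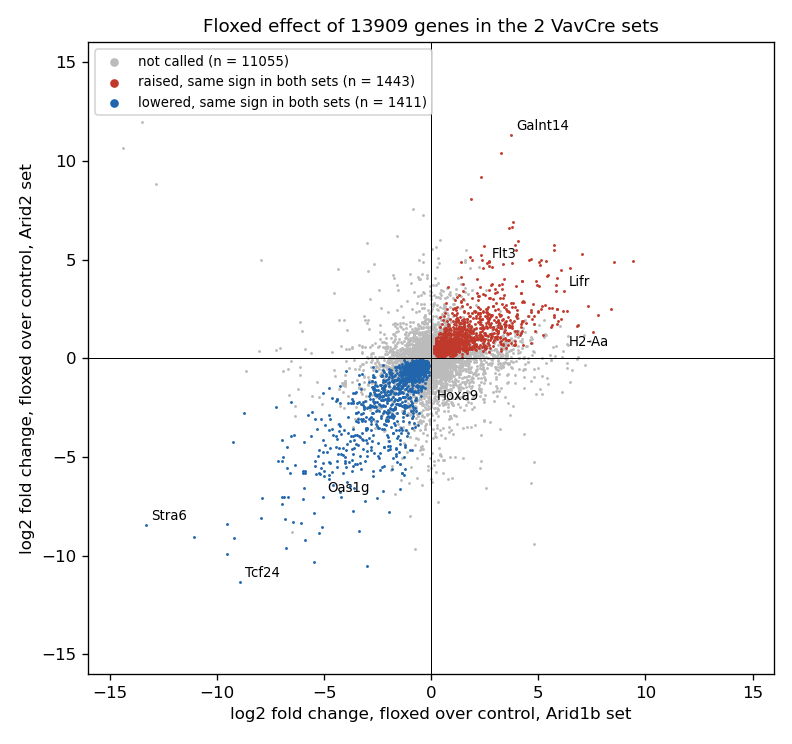
Each point is 1 of 13909 tested genes, with the log2 fold change of floxed over control libraries in the Arid1b set on the x axis and in the Arid2 set on the y axis (3 against 3 libraries in each). Red and blue mark the 1443 raised and 1411 lowered shared genes, which lie at the upper right and lower left; H2-Aa and Hoxa9 lie along 1 axis and are not among them.

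A term for the 4 Y-positive libraries was added to the model: 1279 genes were then raised and 1297 lowered, of which 1151 and 1087 were also in the lists above. In the Arid1b set this term coincides with genotype, so it is told apart from genotype only through Arid2 floxed 2. The signs within each set came from the fit without the term. These counts therefore do not show which shared changes are free of sex. Of 431 tested genes on the X chromosome, 9.98% were raised and 11.1% lowered, close to the 10.4% and 10.1% of all genes. That share covers X-linked genes only, so no conclusion about sex is drawn from it. Without Arid2 control 2, 934 genes were raised and 934 lowered, of which 907 and 925 were also in the lists above. With both Arid1b controls 1 and 2 left out, a setting added after the data were seen because their eosinophil genes lay apart, 1600 were raised and 1819 lowered, with 1007 and 1165 in common. Which libraries descend from which primary leukaemia is not given in the labels, so p-values here measure the spread between these samples only.

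Receptors for cytokines were among the lists with many raised members. Of 26 tested receptors for cytokines and growth factors, 11 were raised and 0 lowered, 42.3% against the 10.4% of all genes. The median log2 fold change was 0.67 against -0.01 over all genes (0.98 in the Arid1b set and 0.257 in the Arid2 set). The 2 effects had the same sign in 16 of the 26, and in 67.1% of all genes. With any single library left out 9 to 12 were raised, and 7 without both Arid1b controls 1 and 2. Lifr, the receptor for leukaemia inhibitory factor, stood at 1.07, 4.44 and 1.12 CPM in the Arid1b controls and at 69.4, 230.1 and 178 CPM in the floxed libraries. In the Arid2 set it stood at 1.45, 2.125 and 4.55 CPM in controls and at 27.6, 43.2 and 13.9 CPM in floxed libraries. The log2 fold change was 4.74 ± 0.72 (SE, adjusted p = 0.00313). Every floxed library lay above every control, but Lifr was picked as 1 of the 14 leading raised genes, for which this was required. Il6st encodes gp130, the signalling chain that the LIF and interleukin 6 receptors share. It stood at 5.56, 20.4 and 8.91 CPM in Arid1b controls against 131, 284 and 258 CPM in floxed libraries, and at 30.4, 24.3 and 61.3 CPM in Arid2 controls against 94.9, 159 and 170.4 CPM. The groups did not overlap in either set (log2 fold change 3.05 ± 0.55, adjusted p = 0.00567). Il6ra, the interleukin 6 binding chain, rose by a smaller 1.38 ± 0.21 (adjusted p = 0.003), from 39.6 to 74.6 CPM in Arid1b controls to 150.4 to 236.5 CPM in floxed libraries and from 109.6 to 152 CPM to 204 to 324 CPM in the Arid2 set. Both chains of the interleukin 6 receptor and the LIF receptor were thus higher in all 6 floxed libraries than in any control of their set.

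Flt3, the receptor tyrosine kinase of early progenitors and dendritic cell precursors, stood at 119, 228 and 22.6 CPM in Arid1b controls and 990, 731 and 518 CPM in floxed libraries. In Arid2 leukaemias it stood at 14.4, 36.7 and 17.5 CPM in controls and 732, 1056 and 122 CPM in floxed libraries. Its log2 fold change was 3.70 ± 0.74 (adjusted p = 0.00795), with no overlap in either set although Arid2 floxed 3 was well below the other floxed libraries. Il7r, the interleukin 7 receptor chain of lymphoid progenitors, rose by 3.70 ± 0.86 (adjusted p = 0.0141), but Arid2 floxed 3 at 1.66 CPM lay within its controls at 0.956 to 3.56 CPM and the call was lost with limma voom (adjusted p = 0.0679). Other raised receptors were those for interferon alpha (Ifnar1 and Ifnar2), interleukins 1, 10 and 17 (Il1r1, Il10ra and Il17ra) and CSF1 (Csf1r), and Il1rl1, the interleukin 33 receptor.

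Feedback inhibitors of these pathways were examined next. Of 21 tested genes induced by MAP kinase or cytokine signals that damp or report them, 8 were raised (38.1% against 10.4% of all genes). Socs1 alone was lowered. The median log2 fold change was 1.00 (1.55 in the Arid1b set and 0.47 in the Arid2 set). The raised count fell to 3 to 5 without any of Arid1b controls 1 and 3, Arid1b floxed 3 and 4, Arid2 controls 1 and 2 and Arid2 floxed 2, and to 4 without both Arid1b controls 1 and 2. Spred3, an inhibitor of RAS to RAF signalling, stood at 1.71, 1.99 and 0.814 CPM in Arid1b controls against 3.62, 5.17 and 4.44 CPM in floxed libraries, and at 0.571, 0.673 and 0.543 CPM in Arid2 controls against 3.00, 4.29 and 2.03 CPM. All floxed libraries were above all controls at a low level (log2 fold change 1.96 ± 0.31, adjusted p = 0.00323). Spry4, an inhibitor of the same step, had 2 counts over the 3 Arid1b controls against 224 over the floxed libraries. That is a ratio of 105 (95% counting interval 28.7 to 872, which leaves out the spread between libraries). In the model of both sets Spry4 rose by 5.36 ± 1.055 (adjusted p = 0.00727, edgeR). In the Arid2 set Spry4 was at 0.627 CPM in floxed 1 and 4.32 CPM in floxed 2, and floxed 3 at 0.06145 CPM lay below 2 of the controls. Socs2, a cytokine-induced suppressor of JAK and STAT signalling, rose by 2.07 ± 0.42 (adjusted p = 0.00812) at levels of 0.171 to 2.79 CPM. Socs2, and below Mef2c, Meis1, Hoxa9, H2-Aa, Cd74, Cxcr4, Mthfd2, Plk1 and Oas1a, were chosen after their values were seen.

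Transcription and chromatin regulators changed in both directions. Of 38 tested myeloid transcription factors, 7 were raised (Bach2, Ikzf1, Irf5, Irf8, Klf4, Rara and Runx1) and 4 lowered (Cebpe, Ets1, Ets2 and Gfi1). These were 18.4% and 10.5%, against 10.4% and 10.1% of all genes. Irf8, which directs monocyte and dendritic cell fate, stood at 115, 342 and 63.4 CPM in Arid1b controls and 933, 1360 and 1143 CPM in floxed libraries, and at 212, 145 and 410.4 CPM in Arid2 controls and 635, 763 and 920 CPM in floxed libraries. Irf8 did not overlap in either set (log2 fold change 2.16 ± 0.43, adjusted p = 0.00757). Gfi1, a repressor needed for neutrophil fate, went the other way: 157 to 346 CPM in Arid1b controls and 296 to 334 CPM in Arid2 controls, against 31.4 to 60.2 CPM and 55.3 to 129 CPM in floxed libraries (log2 fold change -2.08 ± 0.27, adjusted p = 0.00189). Bach2, a repressor known from B cells, was at 0.214 to 0.865 CPM in the 6 controls and 1.87 to 15.7 CPM in the 6 floxed libraries, which do not overlap (3.52 ± 0.55, adjusted p = 0.00313). Of 38 chromatin and DNA methylation enzymes, 6 were raised and 3 lowered, 15.8% and 7.89%. Hdac5, a class II histone deacetylase, rose by 0.53 ± 0.10 and Cbx7, a Polycomb subunit, by 0.72 ± 0.13 (adjusted p = 0.00626 and 0.006).

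Among 27 tested SWI/SNF subunits, 1 was raised (Ss18l1) and 3 lowered (Brd7, Dpf3 and Ss18), 3.7% and 11.1% against 10.4% and 10.1% of all genes. The Ss18l1 call was lost without any one of Arid1b controls 1 and 2, Arid1b floxed 3 and 4, Arid2 controls 1 and 2 and Arid2 floxed 2 and 3, and with the term for Y-positive libraries. Only 1 subunit was lowered without Arid1b floxed 4, Arid2 control 1 or 2 or Arid2 floxed 1. Dpf3, a PHD finger subunit of BAF, was under 2 CPM in every library and fell by 2.62 ± 0.57 (adjusted p = 0.0107). Of 28 tested MLL-fusion targets and self-renewal genes, 5 were raised (Bcl2, Flt3, Gfi1b, Mef2c and Tcf4) and 2 lowered (Myb among them), 17.9% and 7.14%, with a median of 0.01. Bcl2, the anti-apoptotic factor, stood at 21.5, 87.2 and 7.18 CPM in Arid1b controls and 330, 365 and 257 CPM in floxed libraries, and at 21.1, 12.2 and 46 CPM in Arid2 controls and 143, 332 and 70.55 CPM in floxed libraries. No floxed library overlapped a control of its set (2.91 ± 0.60, adjusted p = 0.00863). Mef2c, a transcription factor of MLL-driven progenitors, rose by 2.74 ± 0.67 (adjusted p = 0.0171), from 5.29 to 136 CPM in Arid1b controls to 509 to 641 CPM and from 28 to 172.5 CPM in Arid2 controls to 360.5 to 551.8 CPM. Myb, a transcription factor that MLL-AF9 cells need, fell from 1086 to 1633 CPM over the 6 controls to 672 to 924 CPM over the 6 floxed libraries (-0.61 ± 0.11, adjusted p = 0.00579), with no overlap. Meis1 did not pass (-0.24 ± 0.14, adjusted p = 0.231).

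Hoxa9, the partner of Meis1, showed no shared change. It stood at 151, 149 and 428 CPM in Arid1b controls and 267, 249.8 and 216 CPM in floxed libraries, whereas the Arid2 floxed libraries at 20.2, 90.8 and 81.1 CPM lay below their controls at 363, 341 and 280 CPM. The log2 fold change was 0.01 ± 0.52 in the Arid1b set and -2.36 ± 0.54 in the Arid2 set, and the difference between the sets did not pass (-2.37, adjusted p = 0.185).

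Genes of the MHC class II and dendritic cell list were called in the raised direction only. The raised members were Ciita, H2-DMa, H2-DMb1, H2-DMb2, H2-Ob, Bst2, Ccr7, Cd209a, Flt3 and Tcf4. Of 28 tested MHC class II and dendritic cell genes, 10 were raised and 0 lowered, 35.7% against 10.4% of all genes, with a median log2 fold change of 1.93 (2.84 in the Arid1b set and 0.36 in the Arid2 set); 19 were positive in both sets and 2 negative in both, and 7 to 11 were raised with any single library left out. H2-Ob, a chain of the H2-O chaperone of class II loading, stood at 7.43, 19.8 and 1.63 CPM in Arid1b controls and 42.3, 69.2 and 75.2 CPM in floxed libraries. In Arid2 leukaemias it stood at 2.75, 1.35 and 3.39 CPM in controls and 17.1, 34.3 and 10.45 CPM in floxed libraries. H2-Ob rose by 2.87 ± 0.53 with no overlap in either set (adjusted p = 0.00579). H2-DMb2, a chain of the H2-M peptide exchanger, was at 1.34 to 3.72 CPM in the 6 controls and 4.46 to 12.8 CPM in the 6 floxed libraries, which do not overlap (1.63 ± 0.32, adjusted p = 0.00716). The classical class II chain H2-Aa and the invariant chain Cd74 were not shared: H2-Aa rose 6.17 ± 0.98 in the Arid1b set (adjusted p = 0.00587) and changed by 0.35 ± 0.79 in the Arid2 set (adjusted p = 0.812), and Cd74 by 6.35 ± 1.11 and -0.27 ± 0.88 (adjusted p = 0.00815 and 0.874). The difference between the sets had an adjusted p of 0.0785 for each.

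Because H2-Ob and H2-DMb2 moved together, stretches of their promoter windows are shown. Windows of 300 bases from RefSeq (GRCm38.p6, the build also called mm10), 250 before to 50 after each start, were found for 7 of the 10 raised members. They were searched on both strands for CCAAT, the core of the Y box of class II promoters, which reads ATTGG when it lies on the other strand. It was found in 4 of the 7 (H2-DMa, H2-DMb1, H2-DMb2 and H2-Ob), in 10 of the 19 tested list members with a window and in 37.4% of all 32851 windows. Capitals mark the match, and each stretch lies on the plus strand of chromosome 17, before the start that the promoter table uses. For H2-DMb2 that start is internal: the stretch lies within the gene's RefSeq span, 34143229 to 34151553.
H2-DMb2 (chr17:34145089-34145193): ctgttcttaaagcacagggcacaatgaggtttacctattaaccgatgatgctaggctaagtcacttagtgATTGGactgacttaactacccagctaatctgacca
H2-Ob (chr17:34238778-34238882): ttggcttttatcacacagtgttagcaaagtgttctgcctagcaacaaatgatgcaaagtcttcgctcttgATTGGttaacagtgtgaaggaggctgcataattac
A match is a description of the letters and does not show binding.

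Genes of monocytes and macrophages were raised in number but depended on single libraries. Of 38 tested, 13 were raised and 1 (Fcgr4) lowered, 34.2% and 2.63% against 10.4% and 10.1% of all genes, with a median of 0.87 (1.71 in the Arid1b set and 0.18 in the Arid2 set). The raised count was 5 to 8 without any of the Arid1b controls, Arid1b floxed 3 or 4, Arid2 control 1 or 2 or Arid2 floxed 3, 5 without both Arid1b controls 1 and 2, and 9 with the term for Y-positive libraries. Mpeg1, which encodes the pore-forming perforin-2 of macrophages, stood at 180.3, 408 and 233 CPM in Arid1b controls and 1444, 2033 and 2161 CPM in floxed libraries (log2 fold change over both sets 1.89 ± 0.40, adjusted p = 0.00988). In the Arid2 set the controls stood at 798, 512 and 1214 CPM and the floxed libraries at 1194, 1385 and 2490 CPM, so that floxed 1 lay below control 3. Tlr9, the endosomal receptor for bacterial DNA, rose by 1.70 ± 0.36 without overlap (adjusted p = 0.0092), from 11.45 to 36 CPM over the 6 controls to 53.65 to 127 CPM over the 6 floxed libraries, a call lost with all 24 libraries in the fit (adjusted p = 0.0528). Of 27 NF-kB and inflammatory genes, 6 were raised (Birc3, Nfkb1, Nfkb2, Nlrp3, Rela and Tlr2) and 1 lowered (Icam1), 22.2% raised against 10.4% of all genes. The median was 0.65 (1.05 in the Arid1b set and 0.245 in the Arid2 set). Nfkb1, which encodes the p50 subunit, rose from 160 to 366 CPM in Arid1b controls to 650.1 to 843 CPM, and from 196 to 290 CPM in Arid2 controls to 396 to 493 CPM (1.15 ± 0.20, adjusted p = 0.00464).

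Adhesion and homing genes were raised in 10 of 32 tested and lowered in 3 (Icam1, Jam3 and Vcam1). These were 31.2% and 9.38%, against 10.4% and 10.1% of all genes. The median was 0.77 (0.98 in the Arid1b set and 0.29 in the Arid2 set). Raised members numbered 7 to 12 with any single library left out. Itga4, the integrin chain that holds progenitors to marrow stroma, stood at 367, 468 and 277 CPM in Arid1b controls and 885, 806 and 779 CPM in floxed libraries, and at 324, 294 and 389 CPM in Arid2 controls and 628, 1049 and 633 CPM in floxed libraries. All floxed libraries were above all controls (1.18 ± 0.16, adjusted p = 0.0022). Itgal, the alpha chain of LFA-1, rose by 1.04 ± 0.21 and Cxcr4, the marrow homing receptor, by 0.52 ± 0.12 (adjusted p = 0.00808 and 0.0141); that of Cxcr4 was lost with all 24 libraries in the fit (adjusted p = 0.0572).

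The 14 leading raised genes were ranked by the smaller of the 2 within-set effects among genes without overlap and with a mean of at least 2 CPM. Their log2 fold changes were 4.07 to 5.76. Most were at a low level in controls, which a ranking by fold change favours, so nothing is read from that level. Stxbp6, which encodes a SNARE-binding protein of vesicle fusion, stood at 0.695, 5.46 and 0.407 CPM in Arid1b controls and 56, 86.2 and 83.8 CPM in floxed libraries. Arid2 leukaemias had 0.0519, 0.0354 and 4 CPM in controls and 31.8, 38.4 and 58.5 CPM in floxed libraries. Stxbp6 thus rose by 5.05 ± 0.95 (adjusted p = 0.00624), and in each set a single control, Arid1b control 2 or Arid2 control 3, was above the other controls. Col19a1, a collagen chain, stood at 3.85, 22.6 and 5.04 CPM against 410, 200.4 and 122 CPM in the Arid1b set and at 19.9, 7.51 and 2.58 CPM against 411, 459 and 93.35 CPM in the Arid2 set. It rose by 4.77 ± 0.70 (adjusted p = 0.00266), and its 459 CPM was the highest level among the 14. Zcchc11, a terminal uridylyltransferase that tails let-7 precursors and other RNAs, was at 1.02 to 2.44 CPM in the 6 controls and 5.86 to 50.8 CPM in the 6 floxed libraries (4.10 ± 0.54, adjusted p = 0.00189). Cd28, the T cell costimulatory receptor, rose from 0.39 to 5.8 CPM over the controls to 10.4 to 96.1 CPM over the floxed libraries (4.35 ± 0.73, adjusted p = 0.00436), while the summed T and NK markers were at most 12.3 CPM. Galnt14, a starter enzyme of O-linked glycosylation, had 0 counts in the Arid2 controls and 1320 over the floxed libraries, at least 393-fold higher by a floor of 3 counts over the group. H2-Q6 and H2-Q8, non-classical MHC class I genes, had near-identical values, and since reads cannot be split with certainty between such copies, they count as 1 observation of 4.07 ± 0.57 (adjusted p = 0.0024). The others were Lifr, described above, and Cmya5, Abca6, Epb4.1l4b, Cdh17, Gem and Upb1.

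**Figure D2:**
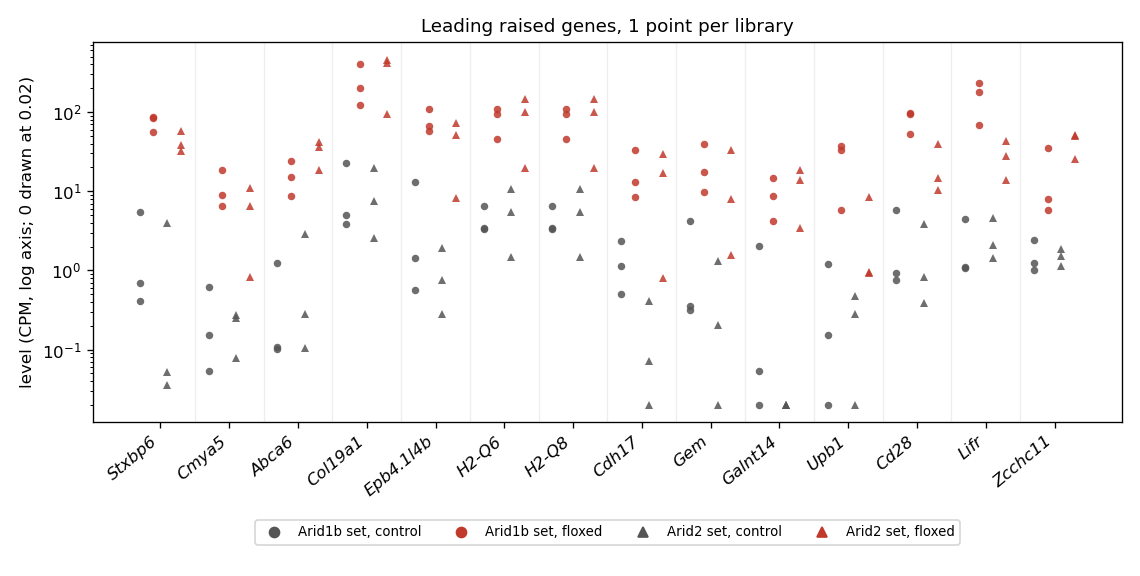
Level in CPM on a log axis (values of 0 are drawn at 0.02) of the 14 leading raised genes, 1 point per library: circles for the Arid1b set, triangles for the Arid2 set, grey for control and red for floxed libraries. Within each set every red point lies above every grey point, as the choice of genes required, and the lowest red triangle is Arid2 floxed 3 for 10 of the 14 genes.

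Lowered genes included a retinol carrier and its receptor. Rbp4, the plasma carrier of retinol, stood at 7.11, 3.41 and 97.6 CPM in Arid1b controls and 0.329, 0.27 and 0.247 CPM in floxed libraries. Arid2 leukaemias had 17.9, 77.6 and 4.17 CPM in controls and 0.1045, 0.326 and 0.338 CPM in floxed libraries. Rbp4 fell by 6.99 on the log2 scale (SE 1.07, adjusted p = 0.00313), with no overlap although the controls ranged from 3.41 to 97.6 CPM. Stra6, the membrane receptor for that carrier, was at 84.2, 104 and 21 CPM in Arid2 controls against 0.154 to 0.261 CPM in floxed libraries. In the Arid1b set it was at 141 CPM in control 3 but at 0.05345 and 0.0569 CPM in controls 1 and 2, and had 0 counts in the floxed libraries, so that its separation there rests on control 3. Tcf24, a basic helix-loop-helix factor, had a like pattern: 1564 CPM in Arid1b control 3 and 1561 and 1626 CPM in Arid2 controls 1 and 2, but 1.88 to 15.8 CPM in the other 3 controls, against 0.217 to 1.66 CPM in the 6 floxed libraries. Its call was lost without Arid1b control 3, where the adjusted p was 0.058, and with limma voom, where it was 0.093.

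Tfpi, the inhibitor of the tissue factor pathway of clotting, had controls that lay close together. It stood at 33.6, 25.8 and 36.3 CPM in Arid1b controls against 0.188, 1.75 and 0.988 CPM in floxed libraries, and at 28.5, 39.7 and 26.2 CPM in Arid2 controls against 0.418, 0.652 and 0.399 CPM. Tfpi fell by 5.50 on the log2 scale (SE 0.44, adjusted p = 0.000528). Igf2r, the receptor that clears IGF2 and sorts lysosomal enzymes, ranged from 7.17 to 328 CPM over the 6 controls and from 0.489 to 10.7 CPM over the floxed libraries, without overlap within a set (-5.79 ± 1.09, adjusted p = 0.00624). Aldh1l1, a folate enzyme, was at 3.8 to 31.8 CPM in controls and 0.045 to 0.309 CPM in floxed libraries (-5.85 ± 0.66, adjusted p = 0.00168). Abcg2, the efflux pump known from stem cell side populations, was at 1.88 to 24.6 CPM in controls and 0.06145 to 0.444 CPM in floxed libraries (-5.54 ± 0.77, adjusted p = 0.00236). Bai1, an adhesion receptor for dying cells, Ndrg2, Tex15, Akr1c13, Gstm2 and Scube1 had log2 fold changes between -5.54 and -4.81, and Oas1g is described with the interferon genes. Cd63, a tetraspanin of lysosomes and granules, fell at a high level: 313 to 435 CPM and 308 to 463 CPM in the controls of the 2 sets against 46 to 73.9 CPM and 84.2 to 149 CPM in floxed libraries (-2.18 ± 0.24, adjusted p = 0.00157).

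**Figure D3:**
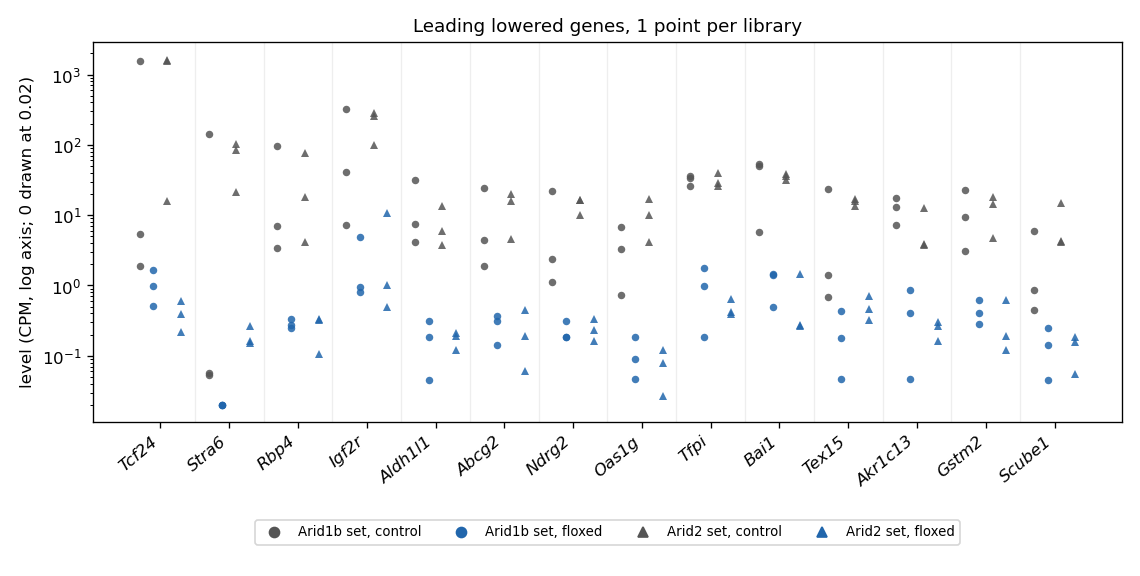
Level in CPM on a log axis (values of 0 are drawn at 0.02) of the 14 leading lowered genes, 1 point per library: circles for the Arid1b set, triangles for the Arid2 set, grey for control and blue for floxed libraries. Within each set every blue point lies below every grey point, as the choice of genes required. Tcf24 and Stra6 are high in only some of the controls, while Tfpi controls lie close together at 25.8 to 39.7 CPM.

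Granule genes of neutrophils were called mainly in the lowered direction, in small numbers. Of 14 tested genes on the primary granule list, 4 were lowered (Cebpe, Gfi1, Prtn3 and Srgn) and 1 raised (Cst7), with a median of -0.60. These were 28.6% and 7.14%, against 10.1% and 10.4% of all genes. Cebpe and Gfi1 are transcription factors, also counted among those above. Of 24 secondary and tertiary granule genes, 3 were lowered (Mmp9, Retnlg and Stfa1) and 0 raised. The lowered share of 12.5% was near that of all genes, and 10 were lowered with the term for Y-positive libraries. The median was -1.55 (-0.27 in the Arid1b set and -2.35 in the Arid2 set). Mmp9, gelatinase B, stood at 83.1, 40.5 and 59.8 CPM in Arid1b controls and 22.8, 9.04 and 26.2 CPM in floxed libraries, and at 91, 212 and 447 CPM in Arid2 controls and 12.3, 2.47 and 9.71 CPM in floxed libraries. It fell by 3.30 (SE 0.78, adjusted p = 0.0149) with no overlap. Srgn, the proteoglycan that packs granule proteins, fell by 0.98 (SE 0.19, adjusted p = 0.0071) from 519 to 1092 CPM over the controls to 334 to 614 CPM over the floxed libraries, without overlap within a set.

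Sterol synthesis genes were called mainly in the lowered direction. Of 29 tested cholesterol and fatty acid synthesis genes, 12 were lowered and 1 (Elovl6, a fatty acid elongase) raised, 41.4% and 3.45% against 10.1% and 10.4% of all genes, with a median of -0.30. The lowered count was 7 without Arid1b floxed 1, 7 without Arid1b floxed 3, 6 without Arid2 floxed 1, 7 without both Arid1b controls 1 and 2 and 8 with the term for Y-positive libraries. Sqle, squalene epoxidase, was at 19.1 to 30.2 CPM in the 6 controls and 8.18 to 16.8 CPM in the 6 floxed libraries. Sqle did not overlap between genotypes and fell by 1.31 (SE 0.18, adjusted p = 0.00236). Other lowered members included the synthesis enzymes Cyp51, Hmgcs1, Lss, Msmo1, Nsdhl and Sc5d, the sterol sensor Insig1 and the carrier Stard4. Of the 7 with a promoter window, 1 (Hmgcs1) held TCACNCCAC, a form of the sterol response element searched on both strands, which 1.24% of all windows hold.

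Unfolded protein and amino acid stress genes were lowered in 7 of 27 tested and raised in 0. The lowered share was 25.9% against 10.1% of all genes, with 5 to 9 lowered when any single library was left out. Asns, asparagine synthetase, stood at 28.3, 14.1 and 137 CPM in Arid1b controls and 9.97, 4.36 and 11.1 CPM in floxed libraries, and at 134, 97.5 and 111 CPM in Arid2 controls and 6.74, 9.54 and 27 CPM in floxed libraries. Asns fell by 2.91 (SE 0.56, adjusted p = 0.00665), Atf5, a transcription factor of the same response, by 1.04 (SE 0.19, adjusted p = 0.00535) and Mthfd2, a mitochondrial folate enzyme, by 0.95 (SE 0.21, adjusted p = 0.0109). In the Arid1b set Atf5 and Mthfd2 overlapped their controls, and the Mthfd2 call was lost with all 24 libraries in the fit (adjusted p = 0.0513). Chac1, Slc3a2, Slc7a11 and Vldlr were the others. Of 29 glycolysis and hypoxia genes, 5 were lowered (Gpi1, Hk1, Pfkfb3, Slc2a3 and Vegfa) and 1 raised (Ankrd37). These were 17.2% and 3.45%, against 10.1% and 10.4% of all genes. Pfkfb3, which makes the activator of phosphofructokinase, varied little within a genotype: 98.6 to 114 CPM in the 6 controls and 61.4 to 74.4 CPM in the 6 floxed libraries (-0.63 ± 0.07, adjusted p = 0.00157). Gpi1, glucose phosphate isomerase, was at 1480 to 1850 CPM and 934 to 1156 CPM (-0.63 ± 0.08, adjusted p = 0.00189).

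Cell cycle genes were lowered by small amounts. Of 39 tested, 12 were lowered and 3 raised, 30.8% and 7.69% against 10.1% and 10.4% of all genes. Of the 39, 30 were negative in both sets and 5 positive in both, with a median of -0.28. The lowered count was 7 without Arid1b control 3, 6 without Arid2 control 1, 7 without Arid2 floxed 1 7 with the term for Y-positive libraries and 4 with all 24 libraries in the fit, but 18 without both Arid1b controls 1 and 2. Cdc25a, the phosphatase that lets cells into S phase, was at 88.8 to 152 CPM in the 6 controls and 55.7 to 75.4 CPM in the 6 floxed libraries, with no overlap (-0.89 ± 0.12, adjusted p = 0.00189). Tyms, thymidylate synthase, was at 55.6 to 85.8 CPM and 37.7 to 47.8 CPM (-0.79 ± 0.13, adjusted p = 0.00409). Plk1, the mitotic kinase, fell by 0.44 (SE 0.11, adjusted p = 0.0207), with its Arid1b floxed libraries at 80.4 to 92.8 CPM overlapping their controls at 83.1 to 114 CPM, and its call was lost with all 24 libraries in the fit (adjusted p = 0.0693). The raised members were the D cyclins Ccnd1 and Ccnd2 and the inhibitor Cdkn1b, and the other lowered ones were Aurka, Bub1, Ccnb2, Cdc6, Cdk1, Mcm2, Mcm3, Mcm5 and Rrm2. The cell cycle homology element TTTGAA, searched on both strands, lay in the windows of 5 of the 12 lowered genes (Aurka, Ccnb2, Cdk1, Mcm2 and Plk1), of 10 of the 31 tested list members with a window and in 17.9% of all windows. Of 29 MYC and ribosome biogenesis genes, 5 were lowered and 1 raised, 17.2% and 3.45%. The lowered count was 2 without Arid1b floxed 3 and 3 without Arid2 control 1 or 2 or Arid2 floxed 1. Bop1, a ribosome assembly factor, fell by 0.43 (SE 0.08, adjusted p = 0.00579) from 117 to 159 CPM to 99.9 to 109 CPM, a call lost with all 24 libraries in the fit (adjusted p = 0.161).

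Interferon response genes were lowered in 7 of 39 tested (Ddx58, Eif2ak2, Ifih1, Ifit2, Isg20, Oas1a and Oas1g) and raised in 2 (Bst2 and Samhd1). These were 17.9% and 5.13%, against 10.1% and 10.4% of all genes. The median was -0.38 (0.02 in the Arid1b set and -0.71 in the Arid2 set). The lowered count was 4 without any of Arid1b floxed 1 or 3, Arid2 control 1 or 2 or Arid2 floxed 1 or 2. Of the 7, the 5 genes Ddx58, Eif2ak2, Ifih1, Oas1a and Oas1g encode sensors of double-stranded RNA. Oas1g, of the 2′-5′ oligoadenylate synthetase family, stood at 3.31, 0.74 and 6.72 CPM in Arid1b controls and 0.047, 0.0899 and 0.185 CPM in floxed libraries, and at 10.2, 17.2 and 4.17 CPM in Arid2 controls and 0.0784, 0.0272 and 0.123 CPM in floxed libraries. It fell by 6.16 (SE 0.75, adjusted p = 0.00185). Oas1a, its neighbour, was at 19.7 to 38.9 CPM in the 6 controls and 1.52 to 12.8 CPM in the 6 floxed libraries, and fell by 1.79 (SE 0.45, adjusted p = 0.0188). Ddx58, which encodes RIG-I, fell by 2.37 (SE 0.48, adjusted p = 0.00858).

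Both Oas1 promoters are shown because both genes of 1 family fell. The core of the interferon-stimulated response element was searched as GAAA, any 2 bases, GAAA, on both strands. It lay in the windows of 5 of the 7 lowered genes, of 18 of the 29 tested list members with a window, and in 3.44% of all windows. Capitals mark overlapping matches, both stretches lie on the minus strand of chromosome 5 before the start that the table uses, and they are printed 5′ to 3′ along the gene.
Oas1g (chr5:120887614-120887695): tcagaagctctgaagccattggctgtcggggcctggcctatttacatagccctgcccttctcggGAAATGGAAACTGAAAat
Oas1a (chr5:120907526-120907609): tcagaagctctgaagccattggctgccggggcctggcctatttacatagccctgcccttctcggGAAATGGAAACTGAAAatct
The near identity of the copies also means that their reads may not be split with certainty.

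Counts for the remaining lists follow, to be read beside the 10.4% raised and 10.1% lowered of all genes. Raised and lowered members numbered 6 and 5 of 32 lysosomal genes (18.8% and 15.6%) and 5 and 5 of 29 apoptosis regulators (17.2% each). They numbered 6 and 1 of 27 phagocyte oxidase and pattern receptor genes (22.2% and 3.7%) and 3 and 2 of 21 stem and progenitor genes (14.3% and 9.52%). Immediate-early genes had 4 and 1 of 23 (17.4% and 4.35%) and p53 pathway genes 2 and 3 of 24 (8.33% and 12.5%). Oxidative phosphorylation genes had 0 and 1 of 29 (0% and 3.45%). Among lists of other cell types the members numbered 4 and 0 of 27 T and NK (14.8% and 0%) and 4 and 0 of 14 megakaryocyte genes (28.6% and 0%). B lineage genes had 2 and 2 of 16 (12.5% each) and erythroid genes 0 and 1 of 14 (0% and 7.14%). Mast cell, basophil and eosinophil genes had 1 and 3 of 16 (6.25% and 18.8%). Stromal and endothelial genes had 0 and 3 of 16 (0% and 18.8%). Most of these counts are small and moved with single libraries: 0 immediate-early genes were raised without Arid1b control 1 or Arid2 control 1, and 1 or 2 without Arid1b control 3, any Arid1b floxed library, Arid2 control 2 or Arid2 floxed 1. Raised oxidase and pattern receptor genes numbered 3 without Arid1b control 1 or 2, Arid1b floxed 3 or 4, Arid2 control 1 or 2 or Arid2 floxed 3, and raised lysosomal genes 3 without Arid1b control 1, Arid1b floxed 4, Arid2 control 1 or 2 or Arid2 floxed 3. Lowered lysosomal genes numbered 3 without Arid1b floxed 1, Arid2 control 2 or Arid2 floxed 2, lowered apoptosis genes 2 without Arid1b control 3, and raised megakaryocyte genes 2 without Arid1b floxed 3, Arid2 control 1 or 2 or Arid2 floxed 1 or 2. Tfeb, a master regulator of lysosome genes, rose by 0.87 ± 0.14 (adjusted p = 0.00368, but 0.0555 with all 24 libraries in the fit), and Bid, a link between death receptors and mitochondria, by 0.45 ± 0.09 (adjusted p = 0.00897).

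**Figure D4:**
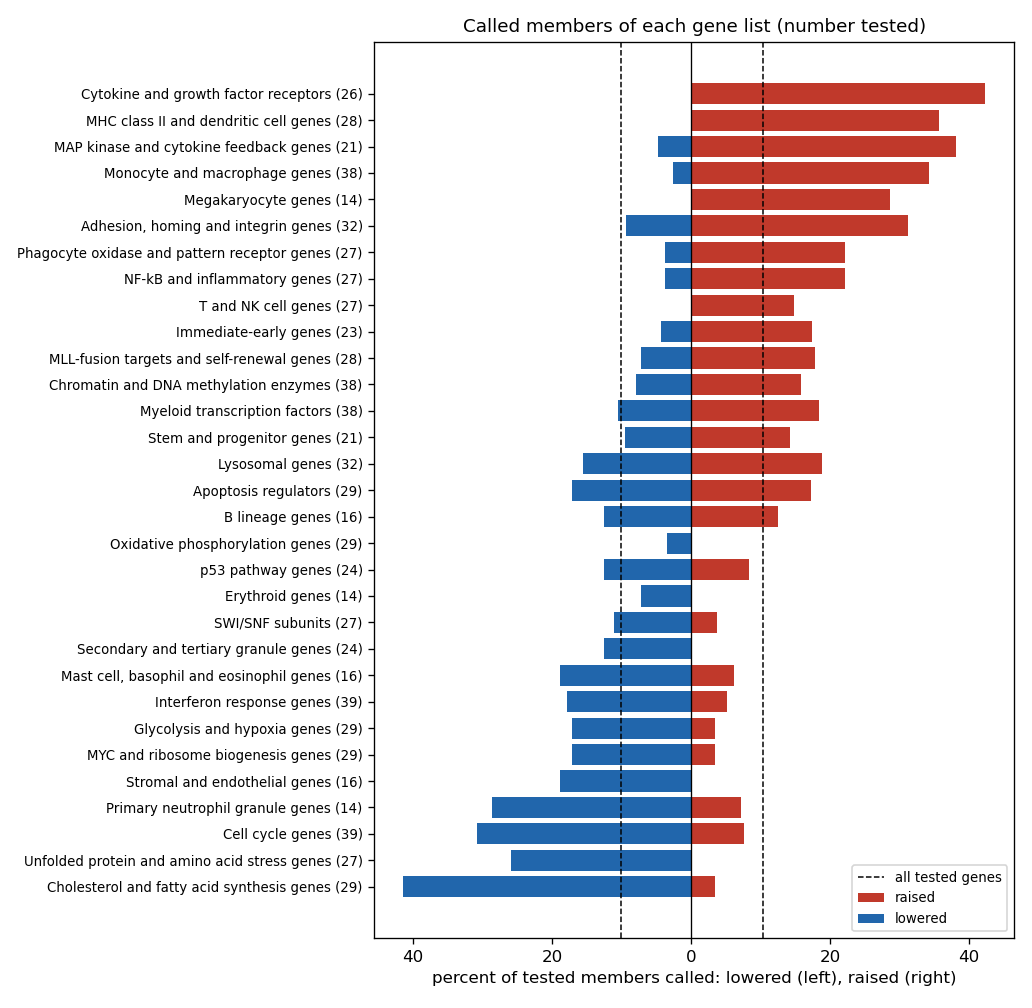
Percent of the tested members of each gene list (number tested in brackets) that were raised (red, to the right) or lowered (blue, to the left) in both VavCre sets. Dashed lines give the same share over all tested genes, 10.4% raised and 10.1% lowered; cytokine receptors reach 42.3% raised and sterol synthesis 41.4% lowered.

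The effect itself differed between the sets for 23 genes (0.165%), of which 15 had opposite signs and 7 were among the shared genes. By DESeq2 the count was 699 and by limma voom 2104. Bin1, a membrane-bending adaptor, was such a shared gene, with a log2 fold change of 1.67 ± 0.12 in the Arid1b set and 0.36 ± 0.12 in the Arid2 set (adjusted p of the difference 0.0259). It was picked after its values were seen, as 1 of the 10 genes with the smallest p of the difference. The count of such genes was 1 to 11 without any one of Arid1b controls 1 and 2, Arid1b floxed 3 and 4, the Arid2 controls or Arid2 floxed 1 and 2, but 88 without Arid1b floxed 1, 69 without Arid2 floxed 3 and 456 without Arid1b control 3, so a low count does not show that the sets respond alike. Of the raised shared genes, 934 of 1443 had the larger effect in the Arid1b set, as had 711 of the 1411 lowered.

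The other 12 libraries of the series, in which Cre was under the Mx promoter and induced with pIpC (12.5 µg per g body weight, 3 injections from day 21 after transplantation), were not used to choose these genes. Titles and cell type descriptions of the MxCre sets name different genes, so the sets are named by title. The same model called 0 of 13442 genes raised (0%) and 0 lowered (0%) there by edgeR, with 679 genes at an unadjusted p under 0.05 and 24 called by DESeq2. Of the shared raised genes, 404 of 1394 tested there (29%) had a positive fold change, against 51.9% of all genes. Of the shared lowered genes, 407 of 1353 (30.1%) had a negative one, against 48.1% of all genes. Their median log2 fold changes were -0.24 and 0.23 in the MxCre set titled A2, against 0.02 over all genes. In the set titled A1b they were -0.05 and 0.01, against 0.01 over all genes. In the model of both MxCre sets most shared genes thus had the sign opposite to that of the VavCre sets, though none was called. Kdm5d stood at 0 to 0.048 CPM in the controls titled A2 and at 42.1 to 51.5 CPM in the floxed libraries. Sex and genotype therefore cannot be told apart in the set titled A2. In the set titled A1b Kdm5d stood at 56.8, 0 and 56.1 CPM in controls and at 35.4, 0 and 0 CPM in floxed libraries. Floxed effects of the 2 Cre lines differed in 791 of 14099 genes (5.61%), 699 of them shared genes. The shared genes were chosen by the VavCre effects that also enter this difference. Their large share of the 791 follows in part from that choice, and nothing is read from it. 

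Levels of the shared genes were then compared library by library. The mean log2 CPM over 1439 raised genes minus that over 1406 lowered genes was 1.97 to 2.38 in Arid1b floxed and 1.37 to 1.94 in Arid2 floxed libraries of the VavCre sets, where it describes the choice of genes. In the MxCre libraries, which took no part in that choice, it was 0.663, 0.944 and 0.24 in the controls and -0.845, -0.616 and 1.09 in the floxed libraries of the set titled A2. In the set titled A1b it was 0.951, -0.802 and 0.992 in the controls and -0.84, 1.08 and 1.11 in the floxed libraries. The value was above 0 in 5 of 6 MxCre controls and 3 of 6 MxCre floxed libraries, and both levels occurred within 3 of the 4 groups. Stxbp6 lay the same way, at 15.3 to 42.3 CPM in the controls titled A2 and at 0.653, 1.03 and 16.9 CPM in the floxed libraries. In the set titled A1b it stood at 27.8, 0.501 and 34.3 CPM in the controls and 0.326, 74.7 and 29.3 CPM in the floxed libraries. Tfpi was the reverse in the floxed libraries, at 36.8, 45.5 and 0.909 CPM in those titled A2 and 34.8, 0.428 and 0.771 CPM in those titled A1b. Its controls stood at 17.8, 3.17 and 43.3 CPM in the set titled A2 and 13.8, 49.7 and 9.13 CPM in the set titled A1b. Control 3 titled A2 was thus high in Tfpi although its value over the shared genes, 0.24, was above 0. Thus the shared VavCre genes also varied widely among MxCre libraries of 1 genotype, including controls.

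**Figure D5:**
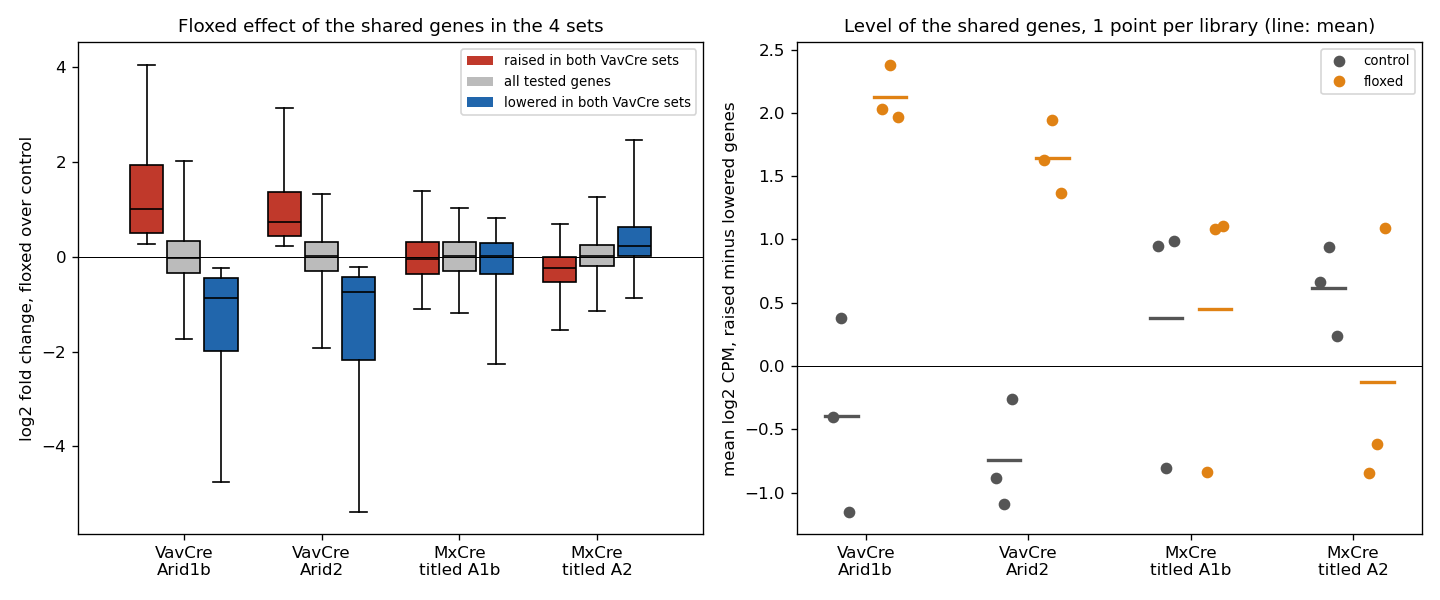
Left: log2 fold changes of floxed over control libraries in each of the 4 sets for genes raised (red) or lowered (blue) in both VavCre sets and for all tested genes (grey); boxes span the quartiles with the median, whiskers the 5th to 95th percentile. Right: mean log2 CPM of the raised minus that of the lowered genes in each library, with the group mean as a line; MxCre libraries of both genotypes lie either at 0.24 to 1.11 or at -0.845 to -0.616, below all VavCre floxed libraries.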

How the data were processed

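RNA was sequenced from 24 MLL-AF9 leukaemia libraries, of which the 12 with VavCre are compared here and the 12 with MxCre are set beside them. The deposited values are counts per gene made by the authors; reads were aligned with STAR to mm10, per the submitters' processing notes, and for the counter, its strand setting and its annotation the entry is: not given in the sources used here. Of 24046 genes, 13909 passed filterByExpr (minimum count 10, minimum total 15). edgeR 4.0.16 in R 4.3.3 fitted TMM-scaled counts with a robust quasi-likelihood model, set as block and genotype as effect; a 4-group fit gave the within-set effects and their difference. P-values were Benjamini-Hochberg adjusted over all tested genes, and errors are SE from that fit. Named genes are the 14 raised and 14 lowered with the largest smaller within-set effect, separated in both sets, with a mean of at least 2 CPM and without predicted genes, and up to 2 called members of each of 32 lists by adjusted p. The members and lists were chosen with earlier results of these data known. Alternatives used limma 3.58.1, DESeq2 1.42.0, other scalings, filters and thresholds, and left out libraries; 3 settings of the Cre comparison and the one without both Arid1b controls 1 and 2 were added after the data were seen. The scripts were tested on simulated data. Some members of the lists are not reported here.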

Additional observations from a re-analysis of the deposited data

Results flagged for a closer look

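For 32 of the genes named, the floxed effect differed between the MxCre and VavCre leukaemias in a test of the difference itself (edgeR, adjusted p 0.00218 to 0.0486). Values are MxCre minus VavCre log2 fold changes. The genes were named by their VavCre effects or with these known, and the same effects enter each difference. The differences are therefore enlarged by that choice and are not separate evidence on the Cre lines. Of genes lowered in the VavCre sets, the effect was higher in the MxCre sets for Mmp9 by 4.03, Akr1c13 by 4.56, Abcg2 by 6.29, Tfpi by 5.2, Cd63 by 2.75, Retnlg by 6.39, Gfi1 by 2.7, Ier3 by 2.24, Srgn by 1.38, Bai1 by 6.63, Rac2 by 0.678, Tyms by 0.937, Gstm2 by 5.26, Oas1g by 7.4, Eng by 2.89, Asns by 3.8, Gpi1 by 0.753, Aldh1l1 by 6.28, Ddx58 by 2.86 and Oas1a by 1.97. Of genes raised in the VavCre sets, the difference was -6 for Cmya5, -0.76 for Hdac5, -5.94 for Abca6, -3.75 for Bcl2, -5.78 for Stxbp6, -1.03 for Birc3, -4.26 for Bach2, -1.78 for Il6ra, -1.18 for Itga4, -1.22 for Nfkb1, -3.54 for Il6st and -0.938 for Cxcr4. None of these genes was called within the MxCre sets, by the same edgeR model. Cre line and all else that differs between the sets cannot be told apart in this design.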

How the results depend on the processing

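Totals of 17093477 to 38315410 counts set the precision for low genes, and each within-set test rests on 3 libraries per group. The 1443 raised and 1411 lowered genes became 447 and 419 at an adjusted p under 0.01, 444 and 523 at 2-fold or more in each set, 830 and 764 without overlap, and 934 to 1593 and 934 to 1625 with 1 library left out. No gene called in a setting turned its direction. With a replicate block, 441 genes were raised and 451 lowered. Deviations of same-numbered libraries correlated at -0.079 to 0.241, and those of differently numbered libraries at -0.211 to 0.217. The labels do not say whether the numbers are pairs, so the block is kept as an alternative. Calls lost with it included Bcl2, Myb, Mef2c, Mpeg1, H2-DMb2 and Oas1a (adjusted p = 0.051, 0.0521, 0.0566, 0.0605, 0.0898 and 0.0898, edgeR). Those of Ddx58, Socs2, Spry4, Cbx7, Dpf3, Bid, Gem, Birc3, Tlr9, Il7r, Cxcr4, Cdh17 and Ss18l1 were lost too. The 292 genes passing in each set alone were 185 without a filter, 902 by DESeq2, 1334 by limma voom, 10 to 448 with 1 library left out and 918 without both Arid1b controls 1 and 2. The 23 genes whose effect differed between the sets were 699 by DESeq2, 2104 by limma voom, 1 to 456 with 1 library left out and 10 without both controls. With the MxCre libraries A2 floxed 3 and A1b floxed 2 left out, 14.8% of raised and 19.8% of lowered genes kept their sign, and 2807 genes differed between the Cre lines. These 2 were picked with earlier results known; they are floxed libraries with high levels of the raised genes (1.09 and 1.08), so leaving them out lowers these shares by construction, and nothing is read from it. With all 24 libraries in the fit, the calls of Bop1, Ss18l1, Tfeb, Tlr9, Cxcr4, Plk1 and Mthfd2 were lost (adjusted p = 0.161, 0.201, 0.0555, 0.0528, 0.0572, 0.0693 and 0.0513, edgeR), and with limma voom those of Il7r, Cdh17 and Tcf24 (0.0679, 0.0544 and 0.093). Of the 32 lists, receptors for cytokines had the largest share raised and sterol synthesis the largest lowered only in some settings: with the term for Y-positive libraries these were the MHC class II and the secondary granule lists. Kdm5d, not called over all 12 libraries, was at -12.3 without Arid2 floxed 2 (adjusted p = 0.00194, edgeR), where Y-positive libraries are the Arid1b controls alone, and turned from a log2 fold change of -0.44 to 0.0128 with the term for Y-positive libraries, to 4.56, 4.54 and 4.59 without Arid1b floxed 1, 3 and 4, and to 0.0171 without both controls; Xist turned to -0.143 with that term. The cause was not tested.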
